A study of Mus musculus with 18 samples.

Results

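Epididymal fat of mice fed a high-fat diet with green tea extract was compared with that of mice fed the high-fat diet alone. The comparison used 6 of the 18 libraries of the study, 3 for each of these diets, and the genes that reached 1 FPKM (fragments per kilobase of transcript, scaled to the mapped fragments of a library) in at least 3 of the 6, which were 12386 of 23474. All animals were male C57BL/6J mice kept in single cages. From 5 weeks of age they ate a high-fat diet (HFD), or the same diet holding 0.25% by weight of an ethanol extract of green tea (GT), for 12 weeks, and they were 17 weeks old at the end. A normal diet (ND) group of fat libraries is given as levels only. Each diet had 10 mice, and the labels do not say whether a library is a mouse or a pool, so the p-values speak only of how far these samples vary, part of which may be technical.

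Epididymal fat is a visceral depot in which adipocytes store triglyceride as a droplet coated by perilipins and release it through hormone-sensitive lipase and related enzymes. In obese mice this depot gathers macrophages around dying adipocytes, its stroma lays down collagen, and several genes of lean adipocytes, adipsin among them, are known to be expressed less. Green tea extracts are rich in catechins, and their use in obesity models centres on body fat and glucose handling.

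The 6 libraries had FPKM totals from 527904 to 555804, and since read numbers were not among the sources the depth is unknown. Defining adipocyte genes were high throughout: adiponectin (Adipoq) stood at 1027, 1037 and 908 FPKM with HFD and at 1258, 1741 and 2129 with GT. Tissues that lie beside this depot left traces in 2 of the HFD libraries. The 24 testis germ cell markers summed to 2460 FPKM in HFD 1 and to between 69.5 and 151 in the other 5, and the 12 epididymal epithelium markers summed to 1300 FPKM in HFD 2 and to at most 15.4 elsewhere. No gene of the epididymal list passed the expression filter, and of 11 testis genes that did, 0 were called by limma (1 at unadjusted p under 0.05), with a median log2 difference of -1.78. Skeletal muscle markers summed to between 23.7 and 27.5 FPKM in all 6. Of the normal diet libraries ND 1 held 105000 FPKM of testis and 22300 FPKM of epididymal markers, and its levels are left out except where it is named. ND 2 and ND 3 are shown, although ND 3, with 3750 FPKM of testis markers, held more of them than HFD 1 did.

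Values were compared as log2(FPKM + 1) in limma, so a difference is a log2 difference GT minus HFD ± its SE, adjusted p is by Benjamini-Hochberg over the 12386 genes with 0.05 as the threshold, and the added 1 understates differences of genes with low FPKM. Below, the 3 values of a diet are in the order of libraries 1, 2 and 3. The extract went with a difference in 920 genes (7.43% of those tested), 416 of them higher (3.36%) and 504 lower (4.07%) with GT. In all 920 the 3 GT libraries lay wholly on one side of the 3 HFD libraries. The differences were moderate, with a median of 0.69 among the higher and -0.75 among the lower genes, and 178 reached a log2 difference of at least 1, 60 up and 118 down. Over all genes tested the median difference was -0.11. The share of calls that were higher rested on the scaling: it was 45.2% as deposited, 33.4% with equal FPKM totals (403 up and 805 down), 64.4% with quantile scaling (709 up and 392 down, with the median of all genes moved by 0.119) and 66.5% with median-ratio scaling (674 up and 339 down). All 920 genes kept their direction under each of these scalings. Among the genes named below, the calls of Fitm2, Pfkfb3 and Cat ended with equal totals, those of Gk, Cpt1b, Pfkfb3, Csf1, Sparc, Mmp23, Sfrp5, Mcm2, Cyp51 and Cat with quantile scaling, and those of Cpt1b, Mrc1, Csf1, Mmp23 and Cyp51 with median-ratio scaling.

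The number of calls depended on single libraries more than on the scaling. It was 8 without HFD 2, 10 without HFD 3, 9 without GT 2, 307 without HFD 1, 479 without GT 3 and 2132 without GT 1, and 0 when all 9 fat libraries shared the fit (503 genes with unadjusted p under 0.05). Of 114 calls named in the text or open to naming, 4, 4, 5, 42, 80 and 113 passed in these 6 fits, in the same order, and Pmepa1, Rnaset2a and Rnaset2b passed in every one. Without HFD 1 and HFD 2 together, the libraries with testis and epididymal transcripts, 0 genes were called and 2316 had unadjusted p under 0.05, with 1 HFD library left whose spread is assumed to be that of the GT group. Every one of the 920 genes had the same direction in each of these fits. That outcome was fixed in advance and is no sign of stability. The libraries of these genes did not overlap between the diets, and ND libraries do not enter the difference. The GT libraries were not alike in distance from the high-fat diet: GT 3 was the highest of all 6 libraries in 284 of the 416 higher genes and the lowest in 375 of the 504 lower genes, while GT 1 was nearest to HFD within its group in 295 and 394 of them.

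**Figure D1:**
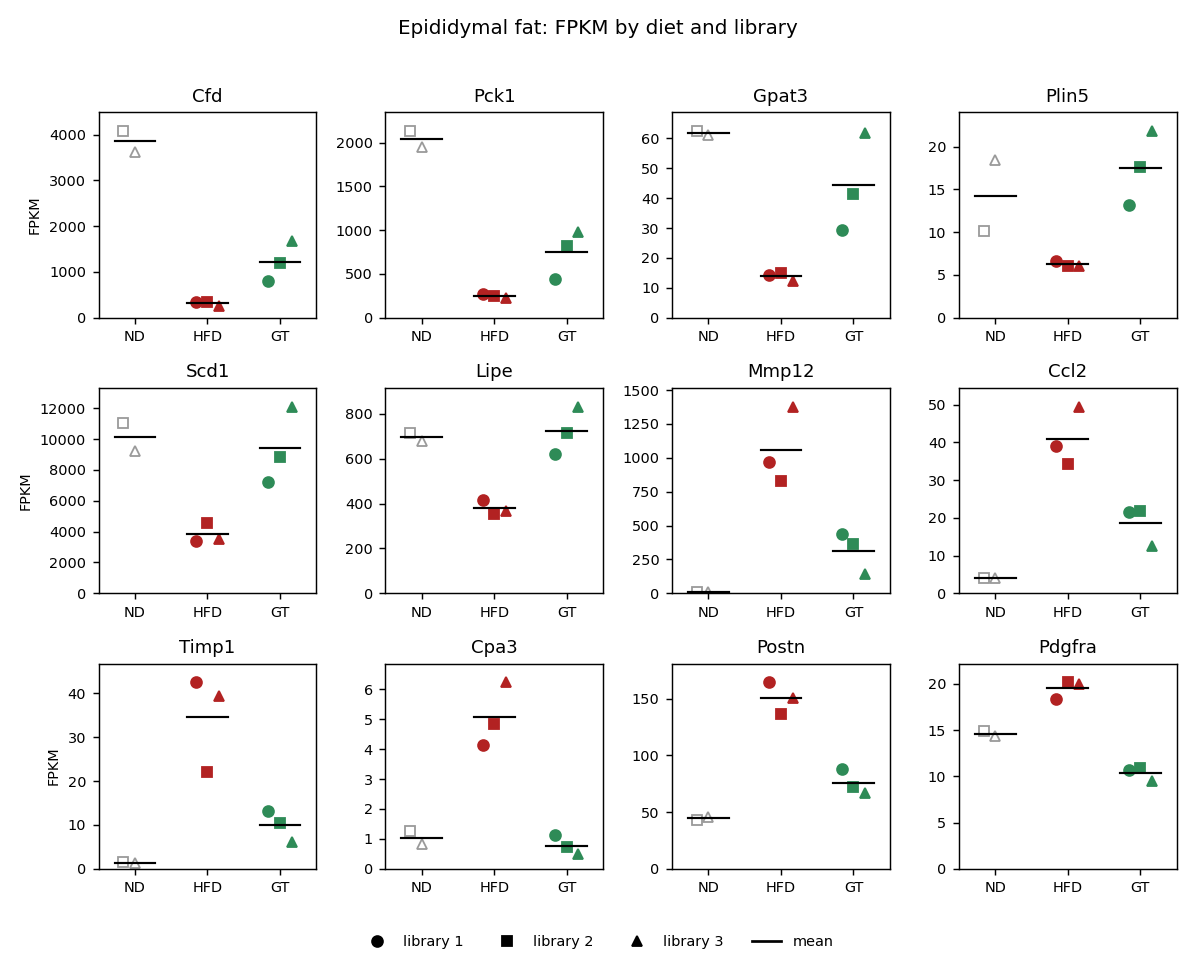
FPKM (linear vertical axis from 0) of 12 genes in epididymal fat by diet, with 1 point for each library and a bar for the mean; open grey points are ND 2 and ND 3. In each of the 12 genes the 3 GT libraries lie on one side of the 3 HFD libraries, as in all 920 called genes. GT 1 is the nearest of the GT libraries to HFD in most panels.

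The largest rise with the extract among genes with a mean of at least 5 FPKM was that of Cyp2e1, a cytochrome that oxidises ethanol and fatty acids. It was at 106, 111 and 65.3 FPKM with HFD and at 240.2, 557 and 795 with GT (log2 2.36 ± 0.43, adjusted p = 0.0331). The lowest GT library was above the highest HFD library, as in every gene called higher, and GT 3 stood far above GT 1. Adipsin (Cfd), a serine protease secreted by adipocytes that acts in the alternative complement pathway, went from 338, 349 and 251 to 799.7, 1204 and 1668 FPKM (log2 1.92 ± 0.27, adjusted p = 0.0209). Its mean with GT was 3.92 times that with HFD. Angiotensinogen (Agt), the precursor of angiotensin made by fat as well as liver, was at 15.4, 14.8 and 8.31 and then at 22.9, 46.9 and 62.3 FPKM (log2 1.64 ± 0.38, adjusted p = 0.0486). It was the one gene called among 6 measured renin-angiotensin genes, whose median was -0.157, where 7.43% of all genes were called. Carbonic anhydrase 3 (Car3), among the most abundant adipocyte proteins, rose from 2732 ± 345 to 8161 ± 2595 FPKM (SD, n = 3; log2 1.53 ± 0.24, adjusted p = 0.0246).

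Pmepa1, a membrane protein that limits TGF-beta signalling, had the smallest SE among the 15 largest rises, going from 79.8, 75.8 and 85 to 206, 229 and 252 FPKM (log2 1.5 ± 0.11, adjusted p = 0.00305). The 3 libraries of each diet were close together and far from those of the other diet. The vesicle protein Syt12 (1.54), the peroxisomal enoyl-CoA isomerase Eci3 (1.44), the secreted resistin-like protein Retnla (1.39) and the GABA transaminase Abat (1.26) also rose, with adjusted p of 0.0364, 0.0421, 0.031 and 0.0258 by limma. Retnla, which alternatively activated macrophages make, stood at 408, 320.2 and 189.5 FPKM with HFD and 721, 789 and 794 with GT. The interferon-inducible Ifi27l2a went from 801, 626 and 658 to 1764, 2141 and 1456 FPKM (log2 1.35 ± 0.17, adjusted p = 0.0209), and ND 2 and ND 3 were at 780.2 and 567, near the HFD level.

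Of 22 adipocyte identity genes 10 rose, 0 fell and 17 had GT libraries all above HFD libraries, with a list median of 0.764; over all genes 3.36% were called higher and 12.7% had GT libraries wholly above. Perilipin 1 (Plin1), the droplet coat that gates lipolysis, was at 343, 314 and 341 FPKM with HFD and 519, 652 and 825 with GT (log2 0.97 ± 0.17, adjusted p = 0.0279). Retinol-binding protein 4 (Rbp4) was at 177, 172 and 181 and then at 292, 318 and 362 FPKM (log2 0.87 ± 0.11, adjusted p = 0.0209). Resistin (Retn), Nnat, Adig, the droplet proteins Plin4 and Cidec, the thyrotropin receptor Tshr and the serine transporter Slc7a10 rose by between 0.6 and 1.22. Summed over the 22 genes, adipocyte markers stood at 25100, 25100 and 23700 FPKM with HFD and at 31000, 34300 and 38000 with GT, a difference in which the groups do not overlap (exact permutation test, two-sided p = 0.1, the smallest that 3 against 3 can give). Fabp4 made up most of each HFD sum, at 14495, 13621 and 12038 FPKM with HFD and 17589, 17492 and 17367 with GT. It was not called (log2 0.39 ± 0.13, adjusted p = 0.1 by limma), so the sums rest much on that gene. In bulk tissue more cells of a type and more RNA per cell cannot be told apart.

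Several of the best known adipocyte genes did not pass. Leptin (Lep), the satiety hormone whose level follows fat mass, was at 899, 1196 and 1186 FPKM with HFD and 1143, 1117 and 1366 with GT, groups that overlap (log2 0.15 ± 0.16, adjusted p = 0.536), and at 323 and 317 in ND 2 and ND 3. Adiponectin differed by 0.76 (adjusted p = 0.0551), the insulin-responsive glucose transporter Slc2a4 by 0.96 (adjusted p = 0.055) and the beta-3 adrenergic receptor Adrb3 by 1.41 (adjusted p = 0.0528), each with GT libraries above all HFD libraries. For Adipoq the call was made with median-ratio scaling. The adipocyte transcription factors Pparg (0.34, adjusted p = 0.218) and Cebpa (-0.32, adjusted p = 0.149), the fatty acid transporter Cd36 (-0.11, adjusted p = 0.603) and lipoprotein lipase Lpl (0.36, adjusted p = 0.277) did not pass either.

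Genes of lipolysis and of the receptors that restrain it rose together in number: 8 of 14 were called higher and 0 lower, with a median of 0.583. By comparison 3.36% of all genes were called higher. Hormone-sensitive lipase (Lipe) went from 418, 354 and 366 to 622, 715 and 832 FPKM (log2 0.92 ± 0.14, adjusted p = 0.0241), the monoglyceride lipase Mgll rose by 0.58, and Aqp7, the channel by which glycerol leaves the adipocyte, rose by 0.78. Adipose triglyceride lipase (Pnpla2), which makes the initial cut, was at 708, 614 and 646 and 659.5, 959 and 1374 FPKM and did not pass (log2 0.54 ± 0.25, adjusted p = 0.176), since GT 1 lay within the HFD values. Its inhibitor G0s2 rose by 0.59 and its co-activator Abhd5 differed by 0.12 (adjusted p = 0.476). Receptors that lower cyclic AMP in adipocytes were among the rises. The short-chain fatty acid receptor Ffar2 stood at 22.5, 13.8 and 11.3 FPKM with HFD and 39.8, 37.4 and 39 with GT (log2 1.29 ± 0.22, adjusted p = 0.0269), the lactate receptor Hcar1 rose by 1.06, the adenosine receptor Adora1 by 0.74, and Pde3b, the phosphodiesterase through which insulin blocks lipolysis, by 0.63. Lipe overlaps a gene on the other strand, 4732471J01Rik, which differed by 0.87 at 7.82 and 14.7 FPKM, and the sources used here do not say whether counting used the strand. Atp5d, Ccna2, Col4a2, Cyp51, Fn1, Gpat3, Gys1, Htr2b, Pcca, Pdia3, Rpl15 and Timp4, named in other paragraphs, also share a locus with a gene on the other strand.

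**Figure D2:**
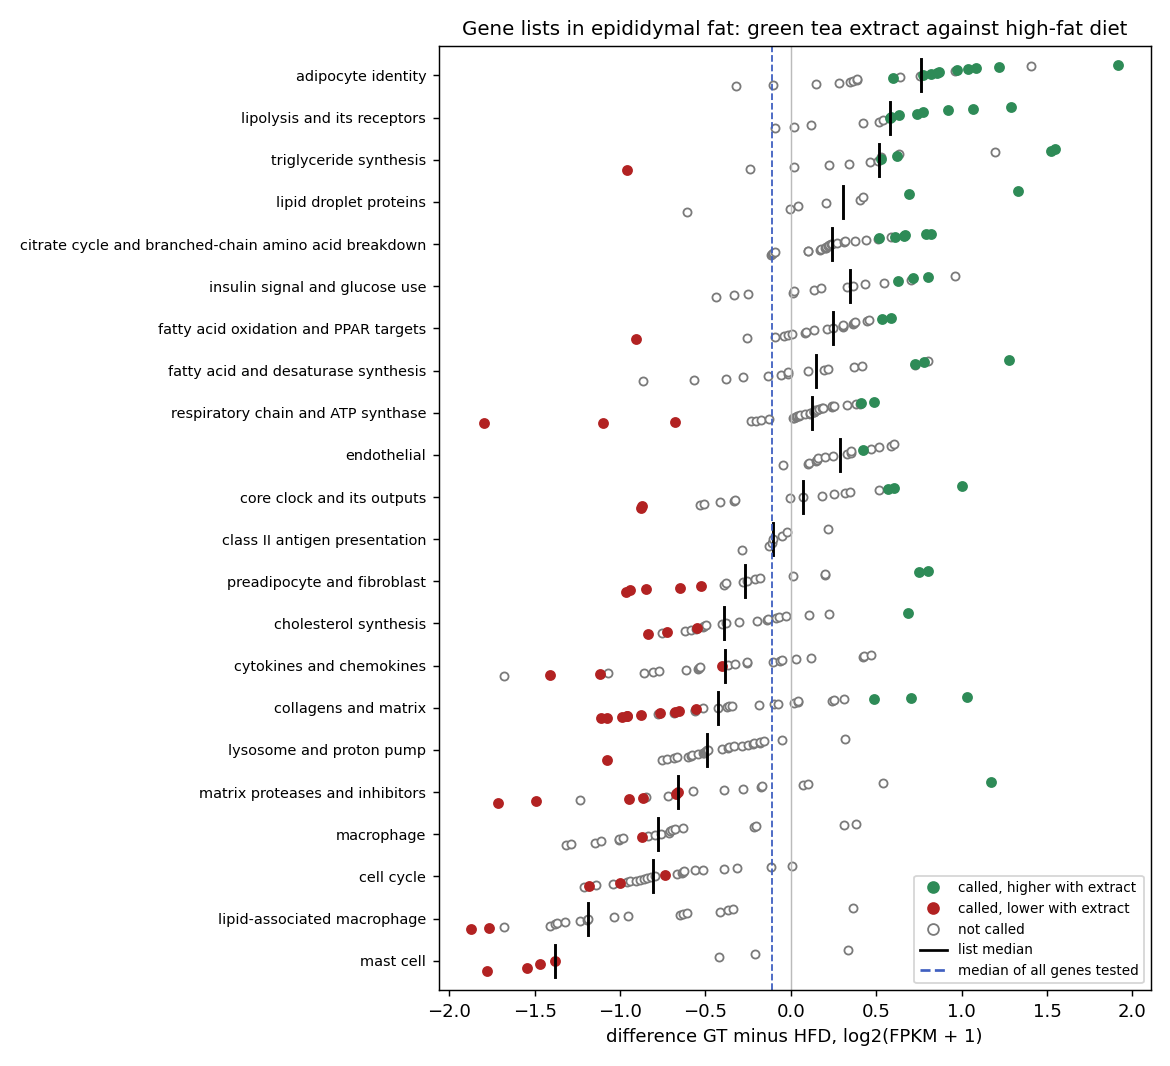
Difference GT minus HFD in log2(FPKM + 1) (horizontal axis) for each measured member of 22 gene lists (rows), with green points for genes called higher, red for genes called lower and open points for genes not called; the black bar is the list median and the dashed line the median of all 12386 genes. Among the 22 lists drawn the adipocyte list has the highest median, 0.764, and the mast cell list the lowest, -1.38, and most macrophage and cell cycle genes lie to the left without being called.

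Among triglyceride synthesis genes 4 of 14 rose and 1 fell, where 3.36% of all genes were called higher and 4.07% lower. Gpat3, which attaches the initial acyl chain to glycerol phosphate, was at 14.3, 14.9 and 12.4 FPKM with HFD and at 29.5, 41.4 and 61.9 with GT (log2 1.55 ± 0.24, adjusted p = 0.0255), against 62.5 and 61 in ND 2 and ND 3. Pck1, which in fat makes glycerol backbone from pyruvate, went from 266, 246 and 227 to 444, 819 and 980.2 FPKM (log2 1.52 ± 0.27, adjusted p = 0.0295), with ND 2 and ND 3 at 2130.0 and 1954. The acyl-CoA synthetase Acsl1 rose by 0.62 and Agpat3 by 0.53. Glycerol kinase (Gk) fell from 8.92, 15.7 and 9.34 to 6.09, 4.53 and 4.98 FPKM (log2 -0.96 ± 0.21, adjusted p = 0.0428). Of 8 droplet genes, Plin5, which tethers droplets to mitochondria, rose from 6.63, 6 and 6.1 to 13.2, 17.6 and 21.8 FPKM (log2 1.33 ± 0.17, adjusted p = 0.0209) and Fitm2, which helps droplets form, rose by 0.69. Plin2, the coat protein of most other cells, was -0.61 with adjusted p = 0.138.

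Fatty acid synthesis changed in 3 of 18 genes, all higher with the extract, where 3.36% of all genes were called higher. The desaturase Scd1, which makes oleate from stearate, stood at 3389, 4571 and 3545 FPKM with HFD and 7249, 8867 and 12110.0 with GT (log2 1.27 ± 0.22, adjusted p = 0.0267). Acacb, the carboxylase whose product holds back mitochondrial fatty acid import, rose by 0.78 and the acyltransferase Pnpla3 by 0.73. Fatty acid synthase (Fasn) was at 393, 318 and 326 and 496, 433 and 412 FPKM (log2 0.37 ± 0.13, adjusted p = 0.107) and the cytosolic carboxylase Acaca differed by 0.42 (adjusted p = 0.278), so neither passed.

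In a list of 28 genes of the citrate cycle and of the breakdown of branched-chain amino acids, 6 rose and 0 fell, and all 6, Bcat2, Bckdha, Ivd, Mccc2, Pcca and Pccb, act on leucine, isoleucine or valine. The shares over all genes, for this list and the next ones, were 3.36% called higher and 4.07% called lower. Isovaleryl-CoA dehydrogenase (Ivd) was at 48, 58 and 60.1 FPKM with HFD and 78.8, 104 and 114 with GT (log2 0.82 ± 0.16, adjusted p = 0.0341). Bckdha, a subunit of the dehydrogenase that commits these amino acids to breakdown, went from 60.8, 50.3 and 58.5 to 86.3, 102 and 108 FPKM (log2 0.79 ± 0.12, adjusted p = 0.0246), and it overlaps B3gnt8 on the other strand, which was at 3.17 and 2.54 FPKM. Of 21 fatty acid oxidation genes Hadh and Acads rose by 0.53 and 0.59, and Cpt1b, the muscle form of the carnitine transferase, fell from 8.81, 4.44 and 5.83 to 3.13, 2.56 and 2.75 FPKM (log2 -0.91 ± 0.21, adjusted p = 0.047). The call of Cpt1b held in 1 of the 6 fits that left out a library. Cpt1b was at 1.73 FPKM in ND 2, 17.4 in ND 3 and 84.7 in ND 1, whose testis markers summed to 240, 3750 and 105000. The part of testis RNA in this fall was not tested. Of 9 thermogenic genes the uncoupling protein Ucp3 rose, from 14.9, 16.5 and 12.6 to 23.9, 32.1 and 41.1 FPKM (log2 1.07 ± 0.2, adjusted p = 0.0298), and Ucp1 did not reach the expression filter. In the insulin and glucose list 3 of 16 rose: the insulin signal kinase Akt2 by 0.63, glycogen synthase Gys1 by 0.71 and the glycolytic regulator Pfkfb3 by 0.8.

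Macrophage genes were mostly lower with the extract, and few passed. Of 20 macrophage markers 1 fell, 0 rose and 13 had GT libraries all below HFD libraries, where 4.07% of all genes were called lower and 25.1% lay wholly below; the list median was -0.778. The mannose receptor Mrc1 went from 58.7, 64.6 and 74.7 to 43.9, 40.3 and 25.1 FPKM (log2 -0.87 ± 0.21, adjusted p = 0.0483). F4/80 (Adgre1) was at 213, 195 and 259 FPKM with HFD and 136, 125 and 57.5 with GT (log2 -1.15 ± 0.32, adjusted p = 0.0661) and did not pass, with GT 3 far below GT 1 and GT 2. The scavenger receptor Cd163 and the receptor Marco differed by 0.31 and 0.38, neither passing. The summed markers were 7850, 5990 and 8190 FPKM with HFD and 5910, 4800 and 2420 with GT (exact permutation test, two-sided p = 0.1, the smallest possible), against 1010 and 804 in ND 2 and ND 3.

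**Figure D3:**
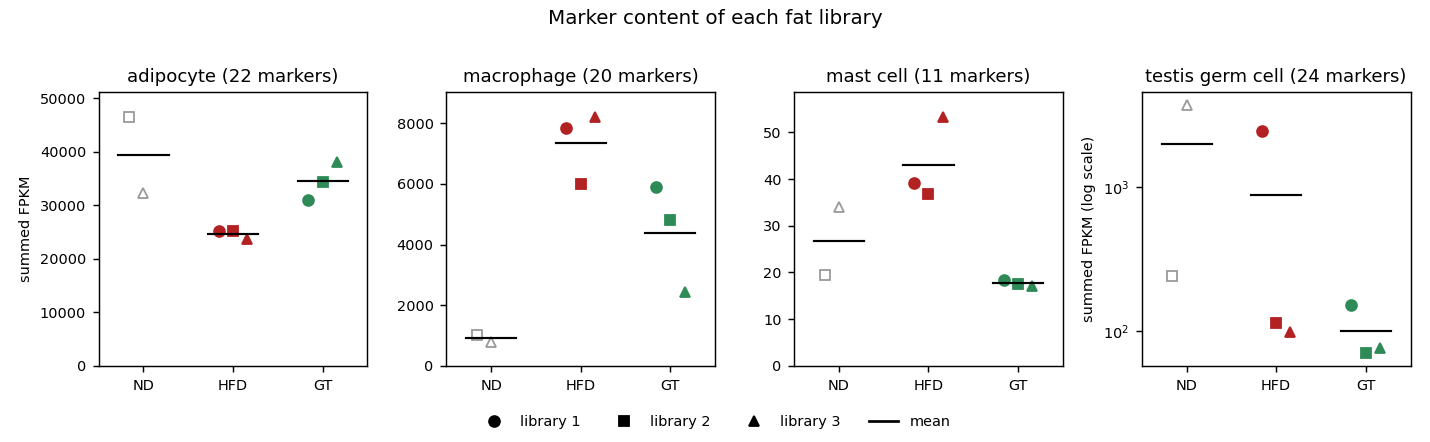
Summed FPKM of marker genes in each fat library by diet (vertical axes linear from 0, except the testis panel, which is logarithmic), with 1 point for each library and a bar for the mean. Adipocyte sums are higher and macrophage and mast cell sums lower in the 3 GT libraries than in the 3 HFD libraries, and HFD 1 has 2460 FPKM of testis markers.

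In the list of lipid-associated macrophages, the cells that ring dying adipocytes, 2 of 19 fell and the median was -1.19. By comparison 4.07% of all genes were called lower. Macrophage elastase (Mmp12) was at 969.8, 828 and 1378 FPKM with HFD and 441, 367 and 139 with GT (log2 -1.87 ± 0.43, adjusted p = 0.0482), while ND 2 and ND 3 were at 9.7 and 5.95. Siglec15, a receptor of macrophages and osteoclasts, was at 2.85, 3.91 and 5.57 and then 0.986, 0.504 and 0.0603 FPKM (log2 -1.77 ± 0.28, adjusted p = 0.0246). Gpnmb (-1.38, adjusted p = 0.1), Trem2 (-1.19, adjusted p = 0.149), Itgax (-1.32, adjusted p = 0.0587) and osteopontin Spp1 (-1.68, adjusted p = 0.0541) did not pass. For Trem2 the libraries stood at 338, 232 and 365 FPKM with HFD and 238, 169 and 59.2 with GT, so that GT 1 overlapped the HFD values and GT 3 did not. Of 28 lysosome and proton pump genes 17 had GT libraries wholly below the HFD libraries, against 25.1% of all genes, with a median of -0.488.

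Of 24 cytokine and chemokine genes 3 fell and 0 rose, where 4.07% of all genes were called lower. Ccl2, which draws monocytes, went from 39, 34.3 and 49.5 to 21.6, 21.7 and 12.6 FPKM (log2 -1.12 ± 0.23, adjusted p = 0.0364), with ND 2 and ND 3 at 4.04 and 4.08. Csf1, the growth factor of macrophages, was at 16.3, 17.2 and 16.2 and 12.2, 12.7 and 12.2 FPKM (log2 -0.4 ± 0.09, adjusted p = 0.0457), and the call held in 0 of the 6 fits that left out a library. Cxcl14 fell by 1.41 on the log2 scale (adjusted p = 0.0331). The inflammatory cytokine Tnf stood at 2.11, 1.91 and 2.19 FPKM with HFD and 1.98, 1.53 and 0.941 with GT (log2 -0.33 ± 0.18, adjusted p = 0.252), and the acute-phase gene Saa3 at 101, 102 and 89.3 and 219, 145 and 77.7, with GT 1 and GT 2 above and GT 3 below the HFD values (log2 0.47 ± 0.34, adjusted p = 0.367). Il6 did not reach the expression filter.

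Mast cell proteases were lower in every GT library. Carboxypeptidase A3 (Cpa3) was at 4.14, 4.85 and 6.24 FPKM with HFD and 1.12, 0.717 and 0.479 with GT (log2 -1.78 ± 0.19, adjusted p = 0.0199). Chymase (Cma1), the chymotrypsin-like Mcpt4 and tryptase (Tpsb2) changed by -1.54, -1.38 and -1.47. The 4 proteases made up all calls among 7 mast cell genes, where 4.07% of all genes were called lower. The stem cell factor receptor Kit (-0.42, adjusted p = 0.0799), histidine decarboxylase Hdc (-0.21) and Gata2 (0.34) did not pass. Over the 11 markers the sums were 39.2, 36.7 and 53.2 FPKM with HFD, 18.3, 17.5 and 17.2 with GT, and 19.5 and 34.0 in ND 2 and ND 3.

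Other leukocyte genes gave no call: 0 of 7 class II antigen presentation genes, 0 of 9 T and NK cell genes, 0 of 3 B cell genes and 0 of 2 neutrophil genes by limma, where 7.43% of all genes were called. At unadjusted p under 0.05 the counts were 0, 1, 1 and 0. Their medians were -0.102, 0.13, -0.129 and -0.194, beside -0.11 over all genes. The 20 T and NK cell markers summed to 61.3, 64.2 and 72.2 FPKM with HFD and to 60.8, 51.1 and 27.3 with GT (exact permutation test, two-sided p = 0.1, the smallest possible). Il7r, given below, made up most of each HFD sum, so the sums speak mainly of that gene. Of the 9 genes tested 6 differed upward and 3 downward. H2-DMb1 was at 89.4, 74.4 and 78.7 FPKM with HFD and 94.9, 72.1 and 42 with GT (adjusted p = 0.502), and the interleukin-7 receptor Il7r at 41.1, 41.9 and 54 and 30.7, 21.6 and 9.91 (adjusted p = 0.0772). The neutrophil gene S100a8 spread from 34.5 to 75.5 FPKM within the GT group (adjusted p = 0.884).

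Matrix genes moved both ways. Of 31 collagen and matrix genes 10 fell and 3 rose, where the shares over all genes were 4.07% and 3.36%, with a median of -0.427. Periostin (Postn), made by activated fibroblasts, went from 165, 137 and 150.5 to 88.3, 72.6 and 66.8 FPKM (log2 -0.99 ± 0.13, adjusted p = 0.0209). Fibronectin (Fn1) was at 152, 126 and 128 and 79, 80.8 and 60.5 FPKM (log2 -0.88 ± 0.14, adjusted p = 0.0258), fibrillin 1 (Fbn1) fell by 0.96 with fibulin 1 (Fbln1) at -1.11, and Loxl2, which cross-links collagen, stood at 13.5, 13.4 and 13.6 and 8.9, 8.18 and 7.21 FPKM with little spread within either diet. Elastin (Eln) rose from 52.4, 39.3 and 37.6 to 83.9, 97 and 84.5 FPKM (log2 1.03 ± 0.14, adjusted p = 0.0209), the basement membrane collagen Col4a2 by 0.49 and Sparc, a calcium-binding matrix protein, from 2456, 2486 and 2762 to 3464, 4432 and 4773 FPKM (log2 0.71 ± 0.15, adjusted p = 0.0404). Sparc and Eln in GT also lay above ND 2 and ND 3, which were at 2103 and 2175 FPKM for Sparc and 42.6 and 65.2 for Eln. The main fibrillar collagen gene Col1a1 was at 227, 159.8 and 218 and 169, 149 and 97.1 FPKM and did not pass (log2 -0.56 ± 0.23, adjusted p = 0.143).

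Of 19 matrix proteases and their inhibitors 6 fell and 1 rose, where the shares over all genes were 4.07% and 3.36%. The inhibitor Timp1 went from 42.6, 22 and 39.3 to 13.2, 10.4 and 6 FPKM (log2 -1.72 ± 0.32, adjusted p = 0.0338), and ND 2 and ND 3 were at 1.48 and 1.25. Timp4, the inhibitor that adipocytes express, went the other way, from 40.8, 48.6 and 33.5 to 65.1, 86.9 and 141 FPKM (log2 1.18 ± 0.28, adjusted p = 0.0483). Gelatinase A (Mmp2) and stromelysin 1 (Mmp3) changed by -0.94 and -1.49, and Timp2, Mmp13 and Mmp23 changed by -0.67, -0.86 and -0.66.

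Fibroblast and preadipocyte genes split in the same way, with 5 of 16 lower and 2 higher, where the shares over all genes were 4.07% and 3.36%. The PDGF receptor Pdgfra, which marks adipocyte progenitors, stood at 18.4, 20.2 and 20 FPKM with HFD and 10.7, 10.9 and 9.54 with GT (log2 -0.85 ± 0.1, adjusted p = 0.0209), and ND 2 and ND 3 were between, at 14.9 and 14.3. Pi16 and Mfap5, known from fibroblasts of the connective tissue sheath, changed by -0.96 and -0.94, and Pdgfrb and Cd34 by -0.53 and -0.65. Ccn5 and Sfrp5, secreted proteins that act on Wnt signalling in adipose tissue, rose by 0.75 and 0.8. Sfrp5 was at 209.5, 163 and 181 FPKM with HFD, 253, 324 and 403 with GT and 103 and 114 in ND 2 and ND 3, so the GT libraries had the highest levels of the 3 diets. The summed markers did not separate the diets, with 2540, 2120 and 2610 FPKM in HFD and 2430, 2370 and 2170 in GT (exact permutation test, two-sided p = 0.6). Of 16 endothelial genes Tie1, a receptor of vessel lining cells, rose (log2 0.42 ± 0.09, adjusted p = 0.042) and 0 fell, with a median of 0.289. This share of calls is near the 3.36% of all genes that were called higher. In 6 of the 16 the GT libraries lay wholly above the HFD libraries, against 12.7% of all genes. The 17 endothelial markers summed to 857, 797 and 716 FPKM with HFD and to 926, 891 and 1100 with GT (exact permutation test, two-sided p = 0.1, the smallest possible). Among 7 mesothelial genes 0 were called, where 7.43% of all genes were, and Wt1 was the nearest (log2 -0.7 ± 0.17, adjusted p = 0.0507).

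Of 24 cell cycle genes 3 fell and 0 rose, where 4.07% of all genes were called lower. In 19 of them the GT libraries lay wholly below the HFD libraries, against 25.1% of all genes, and the median was -0.806. Topoisomerase Top2a was at 19.8, 13.8 and 16 FPKM with HFD and 9.28, 7.62 and 4.05 with GT (log2 -1.18 ± 0.27, adjusted p = 0.044), cyclin Ccna2 at 10.6, 9.87 and 9.9 and 6.5, 4.95 and 2.85 (log2 -1.0 ± 0.23, adjusted p = 0.0445), and the replication helicase subunit Mcm2 fell by 0.73. Proliferation marker Mki67 differed by -0.94 (adjusted p = 0.0502). Macrophage markers moved the same way in the same libraries, and their part in this result was not tested. Cholesterol synthesis genes fell in 3 of 22 and rose in 1, where the shares over all genes were 4.07% and 3.36%, with a median of -0.39. Sqle, Msmo1 and Cyp51 changed by -0.83, -0.72 and -0.55, and Hmgcs1, an early step, rose from 122, 113 and 112 to 167, 184 and 210.5 FPKM (log2 0.68 ± 0.12, adjusted p = 0.0267).

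Of 17 genes of the circadian clock and its outputs 3 rose and 2 fell, where 3.36% and 4.07% of all genes were called, and the median was 0.0737. In the known clock, Arntl (BMAL1) with Clock or Npas2 drives E-box genes, among them Per3, Nr1d1 and Tef; Nr1d1 (REV-ERB alpha) represses Arntl and Npas2 through ROR elements, and Tef acts on D-boxes. Arntl was at 8.72, 8.09 and 9.92 FPKM with HFD and 4.35, 4.86 and 4.03 with GT (log2 -0.87 ± 0.12, adjusted p = 0.0209), and Npas2 at 3.24, 3.1 and 3.67 and 1.6, 1.26 and 1.23 (log2 -0.88 ± 0.13, adjusted p = 0.0243). Nr1d1 rose from 27.1, 25.5 and 15.6 to 37.9, 44.3 and 55.4 FPKM (log2 1.0 ± 0.22, adjusted p = 0.0439), Per3 from 6.09, 7.91 and 5.95 to 11.2, 10.3 and 10.1 (log2 0.6 ± 0.13, adjusted p = 0.041) and Tef from 28.1, 32.5 and 31 to 47.4, 42.5 and 47.6 (log2 0.57 ± 0.1, adjusted p = 0.029). None of the 5 genes had overlapping libraries, which held for all 920 called genes. Clock itself was at 10.6, 15.9 and 14 and 12.2, 13.3 and 14.3 FPKM (log2 -0.01 ± 0.15, adjusted p = 0.987), and the output gene Dbp (0.31, adjusted p = 0.277), Nr1d2 (0.52, adjusted p = 0.0892), Per1 (-0.51, adjusted p = 0.195), Per2 (0.18) and Cry1 (-0.33) did not pass. All 5 calls ended without HFD 2, without HFD 3 and without GT 2. Those of Tef, Nr1d1 and Per3 also ended without HFD 1, and those of Nr1d1 and Per3 without GT 3. Nr1d1 overlaps Thra on the other strand, which differed by 0.24 (adjusted p = 0.25). Mice were kept under a light and dark cycle, the labels used here do not give the hour at which tissue was taken, and the part of that hour in these differences was not tested.

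**Figure D4:**
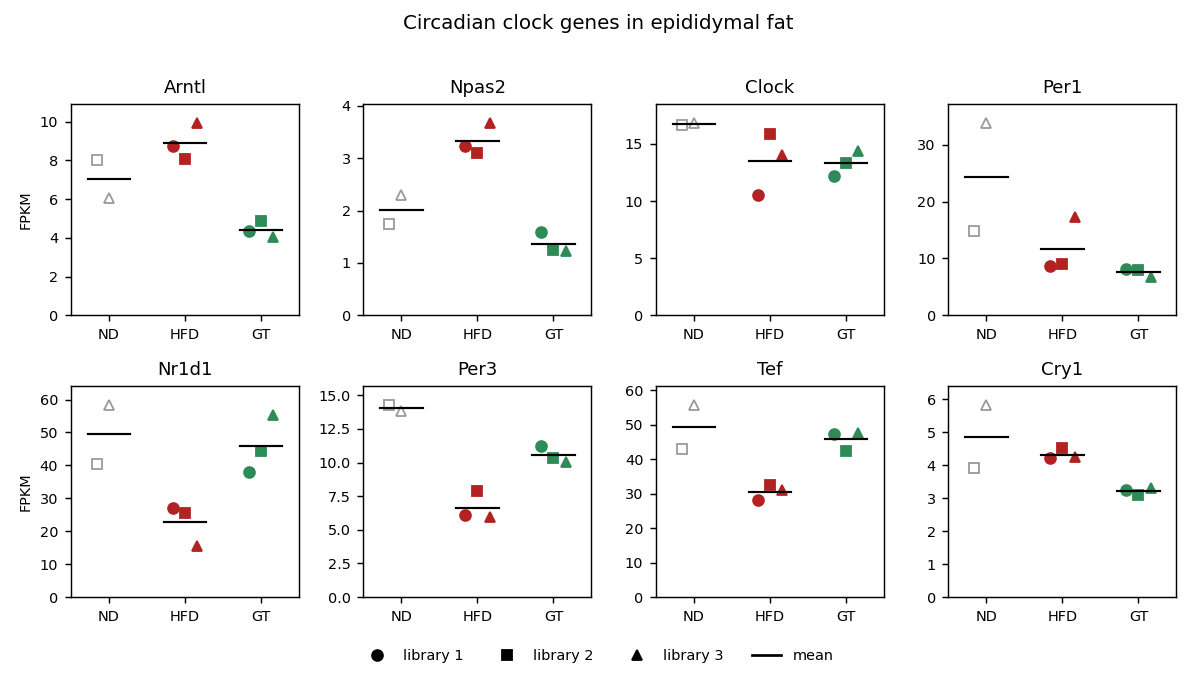
FPKM (linear vertical axis from 0) of 8 clock genes in epididymal fat by diet, with 1 point for each library, a bar for the mean and open grey points for ND 2 and ND 3. Arntl and Npas2 are lower and Nr1d1, Per3 and Tef higher in the 3 GT libraries than in the 3 HFD libraries, and Clock overlaps.

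Promoter stretches of 3 of these genes are shown because they hold the elements through which the clock is known to act. RefSeq promoters of mouse build GRCm38.p6 (250 bases before to 50 after each start) were found for all 5 genes and searched on both strands for the E-box CACGTG, the D-box TTANGTAA and the ROR element core TAGGTCA, which do not overlap here and are in capitals below. These were present in 7.15%, 2.32% and 2.61% of 32851 mouse promoter windows.
Tef, chr15:81802516-81802581, plus strand: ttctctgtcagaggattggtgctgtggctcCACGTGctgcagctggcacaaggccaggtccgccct
Per3, chr4:151044804-151044882, minus strand: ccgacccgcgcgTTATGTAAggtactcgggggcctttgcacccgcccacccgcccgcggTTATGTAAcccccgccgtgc
Arntl, chr7:113207530-113207558, plus strand: aaggcagaaagTAGGTCAgggacggaggt
The E-box of Tef begins at position -127 from its start, the D-boxes of Per3 at -205 and -158, and the ROR element of Arntl at 31, just past the start. A further start of Tef, in the window chr15:81811164-81811463, also held an E-box. The window of a further start of Arntl, chr7:113207215-113207514, held none of these elements. The windows of Npas2 and Nr1d1 held none of these letters, which says nothing of sites elsewhere. Such matches describe the sequence only.

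The largest falls were in genes of unlike function. Scand1, a small SCAN domain protein, went from 16, 10.8 and 14 to 1.64, 0.19 and 0.552 FPKM (log2 -3.09 ± 0.29, adjusted p = 0.0123). The paired lysosomal ribonuclease genes Rnaset2a and Rnaset2b were at 8.84, 9.27 and 10.5 and 9.96, 8.72 and 9.69 FPKM with HFD and at 1.35, 1.03 and 0.861 and 0.577, 0.538 and 0.398 with GT (log2 -2.34 and -2.8, adjusted p = 0.000773 and 0.000206 by limma). They are near-identical copies, so shared reads may be split between them and neither value is certain alone. Zranb3, a helicase that restarts stalled replication forks, spread widely within both diets, at 53.6, 48.3 and 84.8 and 20.6, 12.6 and 5.48 FPKM (log2 -2.31 ± 0.43, adjusted p = 0.0338). Further falls were in the serotonin receptor Htr2b (-1.81), Pcp4l1 (-1.69), the histone variant H2afj (-1.66), the membrane protein Basp1 (-1.66), the adaptor Stap1 (-1.61), the adhesion molecule Cadm1 (-1.61) and Pianp (-1.6). Scand1 shares its locus with Cnbd2 on the other strand, which was at a mean of 2.0 FPKM with HFD and 1.46 with GT.

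In the respiratory chain list 2 of 32 genes rose and 3 fell, where the shares over all genes were 3.36% and 4.07%. The falls were much the larger. Cox5b and Cox5a, both subunits of cytochrome c oxidase, were at 176, 168 and 156 and 109, 85.1 and 95.2 FPKM with HFD and at 59.7, 38.1 and 46 and 52.9, 43.9 and 37.2 with GT (log2 -1.8 and -1.1, adjusted p = 0.00778 and 0.0209 by limma). The ATP synthase subunit Atp5d fell by 0.68. Ndufv1 and Ndufb8, subunits of complex I, rose by 0.49 and 0.41. The other 27 genes did not pass, the cytochrome oxidase subunits Cox6a1, Cox6b1 and Cox7b among them at 0.14, 0.05 and 0.05, and the list median was 0.124.

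Several of these falls had a counterpart in liver, where the same table holds 3 libraries for each diet. Of the 15 largest falls in fat, 9 had liver GT libraries all below the liver HFD libraries, 6 of them among the 10 that reached 1 FPKM in at least 3 of these 6 liver libraries, where 18.3% of 10405 such liver genes were wholly lower. Of the 15 largest rises 10 passed this liver filter, and of these 0 were wholly higher in liver (8.54% of liver genes) and 2 wholly lower. In liver Scand1 was at 0.73, 0.21 and 0.203 FPKM with ND, 12.2, 23.5 and 14.4 with HFD and 0.566, 1.66 and 2.18 with GT. Rnaset2b was at 1.45, 1.08 and 1.2, 9.82, 5.55 and 7.11 and 1.76, 0.711 and 2.22, again with HFD apart from both other diets. H2afj (17.7, 27.4 and 21.9 with HFD and 3.73, 6.03 and 11 with GT), Cox5a (228, 222 and 188 and 108, 129 and 94.3) and the AP-1 member Jund (14, 12.8 and 14.4 and 4.95, 4.1 and 5.6) followed the same order, and Jund in fat fell from 23.6, 18.3 and 24.4 to 11.7, 7.18 and 7.66 FPKM (log2 -1.25 ± 0.19, adjusted p = 0.0241). Jund overlaps Gm11175 on the other strand, which was more abundant and differed the same way in fat, at a mean of 61.9 FPKM with HFD and 36.6 with GT (log2 -0.76, adjusted p = 0.0685). Cox5b in liver was at 348.5, 499 and 406 FPKM with HFD, 236, 269 and 340.5 with GT and 232, 217 and 113 with ND. For these 5 genes and Cox5b, ND 2 and ND 3 in fat also lay below every HFD library. ND 1, which held testis RNA, did not follow this. It was above every HFD library for Scand1 (29), H2afj (25.1), Cox5a (174), Jund (36.7) and Cox5b (289). For Rnaset2b ND 1 was at 6.98 FPKM, below the HFD libraries and above ND 2 and ND 3. The labels used here do not say whether libraries of the diets were prepared together, and the part of preparation in these falls was not tested. Over all calls there was no such match of direction: of 321 genes called lower in fat and expressed in liver 27.1% were wholly lower in liver, and of 300 called higher in fat 25.0% were wholly lower there as well. Muscle transcripts varied among the liver libraries: the 11 markers came to 137 FPKM for HFD 2, 50.3 for GT 3, 28.0 for HFD 3 and no more than 3.28 for the rest. No liver test was run for these values.

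**Figure D5:**
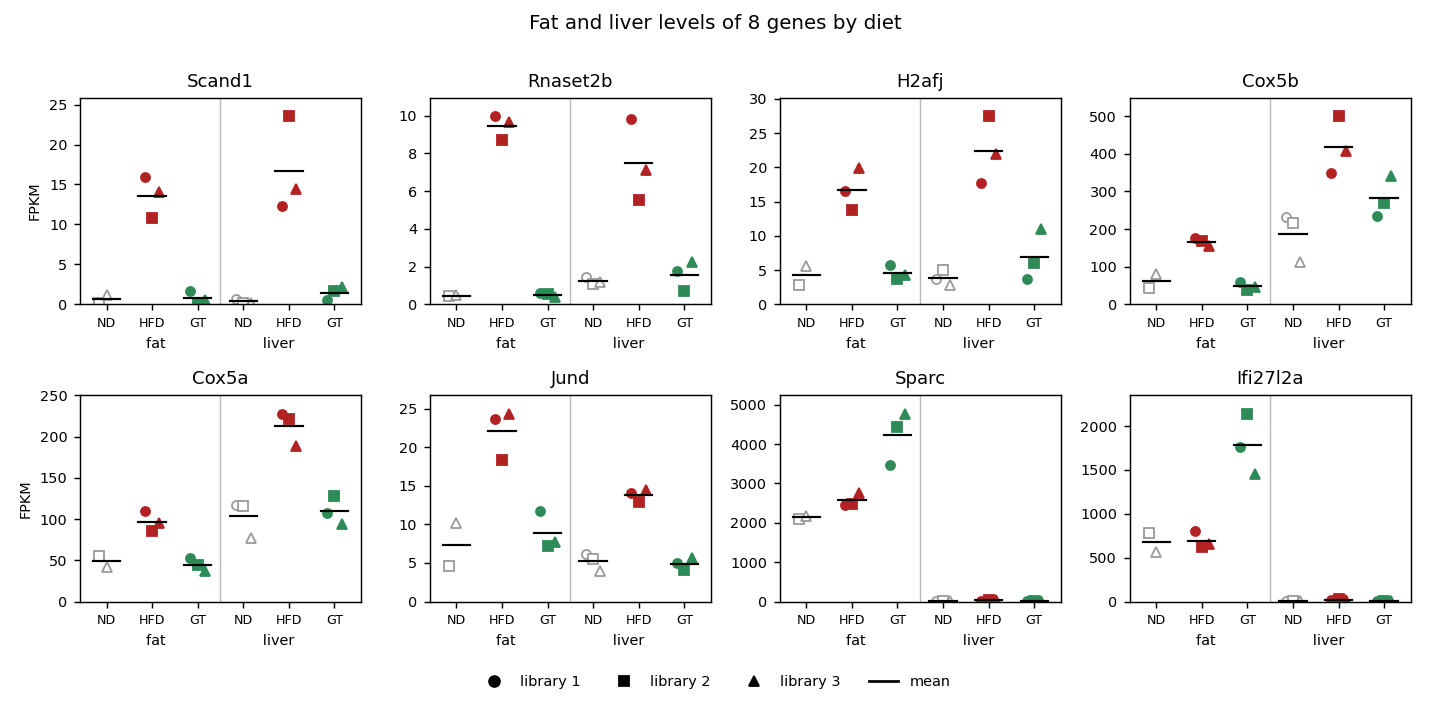
FPKM (linear vertical axis from 0) of 8 genes in fat (left) and liver (right) by diet, with 1 point for each library and a bar for the mean; fat ND 1 is not drawn. Among the libraries drawn, Scand1, Rnaset2b, H2afj, Cox5b, Cox5a and Jund are highest in the HFD libraries of both tissues. Sparc and Ifi27l2a are higher with GT than HFD in fat and lie close to the baseline of this axis in liver.

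Levels on the normal diet place the extract group differently for different genes. For Lipe the GT values of 622, 715 and 832 FPKM spanned those of ND 2 and ND 3, 714 and 677. For Cfd and Pck1 they lay between, with Cfd at 799.7, 1204 and 1668 against 4074 and 3626. Macrophage genes stayed far above: Gpnmb was at 535, 432 and 143 FPKM with GT and 3.75 and 6.01 in ND 2 and ND 3. Arntl with GT lay below both ND libraries, at 4.35, 4.86 and 4.03 against 8.02 and 6.07. These are levels set side by side, since a comparison of HFD with ND would share the HFD libraries.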

How the data were processed

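RNA of epididymal fat was sequenced with polyA libraries, and the authors deposited 1 table of FPKM values for 23474 genes in 18 libraries. The submitters' processing notes name Cufflinks 2.1.1, STAR 2.4.0 and CASAVA 1.8.2; build and strandedness are not given in the sources used here. Symbols matched 22671 identifiers. FPKM was tested as log2(FPKM + 1) in limma 3.58.1 (R 4.3.3), two-sided, with trend and robust variances and a mean for each diet, over genes at 1 FPKM in 3 of 6 libraries. On simulated data for this comparison (12386 genes) 80 of 100 genes at log2 1 and 96 of 100 at log2 2 were recovered, with 7 false calls, and 0 calls when no gene was changed. The changed genes were picked among those with a mean log2(FPKM + 1) above 3, so recovery at lower levels is not covered. Each gene varied independently, so shifts shared by a whole library were not simulated.

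Gene lists (38) were compiled from general knowledge and are described by counts and medians. The genes, lists and alternatives were chosen with earlier results of these data known. Named genes were the 15 largest rises and falls among calls with nonoverlapping libraries and a mean of at least 5 FPKM, up to 5 called members of a list each way (up to 2 where none was called), and 35 fixed genes, of which 33 were measured; other list members, the comparison of tissues and the genes drawn for liver were chosen after values were seen. Some genes that this rule names are not reported here. Repeats changed the added constant, filter, scaling, variance prior, replicate block and libraries; leaving out HFD 1 with HFD 2 and a correction for length and GC content (gene models of GENCODE M21, 99.4% of genes) were added after seeing the data. Tables were made with pandas 2.3.3 and NumPy 2.4.6 in Python 3.11.15 and plots with matplotlib 3.10.9.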

Additional observations from a re-analysis of the deposited data

Results flagged for a closer look

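Of the 114 calls named or open to naming, 15 had liver libraries that moved the opposite way without overlap. These were 12 higher in fat and lower in liver and 3 the reverse. Among all 300 genes called higher in fat and expressed in liver, 25.0% were wholly lower there. Among the 321 called lower in fat, 6.23% were wholly higher in liver. Over all liver genes 18.3% were wholly lower and 8.54% wholly higher. Whether the effect differs between the tissues was not tested. The matrix gene Sparc was 0.71 in fat and -1.42 in liver (log2, GT minus HFD), the hormone gene Fgf21 0.96 and -2.07, Ifi27l2a 1.35 and -1.24, and the lipase inhibitor G0s2 0.59 and -0.99. Extracellular superoxide dismutase Sod3 was 0.49 and -0.97, the droplet protein Plin5 1.33 and -0.84, the pseudokinase Trib3 0.54 and -0.82, and Ndufb8 0.41 and -0.65. Smaller liver differences were those of Acacb (0.78 and -0.49), Col4a2 (0.49 and -0.49), Mgst1 (0.69 and -0.37) and Bckdha (0.79 and -0.19). In the reverse direction were the chaperones Hsp90b1 (-0.48 in fat and 0.98 in liver) and Pdia3 (-0.55 and 0.55) and the matrix gene Fn1 (-0.88 and 0.59).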

How the results depend on the processing

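The count of 920 calls (416 higher, 504 lower) became 6 without a filter (2 and 4; 19470 genes tested), 270 with ND 2 and ND 3 in the fit (138 and 132), 0 with all 9 fat libraries (0 and 0) and 178 when a log2 change of at least 1 was also required (60 and 118). Leaving out each library in turn gave 8 to 2132 calls, 2 to 693 higher and 5 to 1439 lower; without HFD 1 and HFD 2 there were 0 (0 and 0). Higher calls became 709 with quantile and 674 with median-ratio scaling, and lower calls 805 with equal FPKM totals. With the replicate block 15 genes were called (4 and 11). Whether the replicate numbers stand for a shared batch or pairing cannot be told from 3 libraries for each diet. Same-numbered libraries had correlations of deviations of 0.205, 0.0179 and -0.107. HFD 1 and GT 1 correlated best with each other, while HFD 2 correlated best with GT 3 (0.235) and HFD 3 with GT 2 (0.192). The added constant of 0.1 (822), the filter at 5 FPKM (1045), the plain prior (710) and the length and GC correction (1105, over 12307 genes) stayed within 1.5 times. No call reversed in any of these fits. Only the scalings and the length and GC correction could have turned a direction, since called genes did not overlap between the diets. The cause of the differences between these fits was not tested. By GC content of the transcript, cut into 5 equal classes, higher calls went from 24 in the lowest to 132 in the highest class, and lower calls from 102 to 96. Without read numbers, the precision of low FPKM cannot be given.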

Other observations

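Stress and defence genes were called in small numbers, in both directions, where 3.36% of all genes were called higher and 4.07% lower. Of 20 genes of the unfolded protein and stress response 2 rose and 3 fell: Fgf21, a metabolic hormone, went from 1.05, 0.669 and 0.694 to 2.19, 2.35 and 2.96 FPKM (log2 0.96 ± 0.16, adjusted p = 0.0259) and Trib3 rose by 0.54, while the endoplasmic reticulum chaperones Hsp90b1, Pdia3 and Sdf2l1 changed by -0.48, -0.55 and -0.79. Hsp90b1 stood at 112, 118 and 111 FPKM with HFD and 82.7, 81.4 and 79.4 with GT, and at 81.2 and 82.1 in ND 2 and ND 3. Of 22 NRF2 and glutathione genes 3 rose and 1 fell. Catalase (Cat), which breaks down peroxide, was at 246, 278 and 301 and 366, 389.5 and 425 FPKM (log2 0.52 ± 0.12, adjusted p = 0.0461), Mgst1 and Sod3 rose by 0.69 and 0.49, and thioredoxin reductase Txnrd1 fell by 0.61. The median of this list, -0.0571, turned above 0 with quantile and with median-ratio scaling.

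Of 15 immediate early genes 1 was called, Jund, and 8 lay wholly below, with a median of -0.493; over all genes 4.07% were called lower and 25.1% lay wholly below, so the share of calls is near that of all genes. In the type I interferon list 1 of 19 rose, Ifi27l2a (3.36% of all genes were called higher), and the median was 0.0653. Of 23 cytosolic ribosome genes 1 was called, a share near that of all genes: Rpl15 went from 169.5, 156 and 163 to 123, 109.7 and 87.8 FPKM (log2 -0.62 ± 0.14, adjusted p = 0.0414). Among 5 red blood cell genes, 2 skeletal muscle genes and 1 pancreas gene kept by the filter, 0 were called by limma, and the nearest was the elastase Cela1 at 33.7, 36 and 36.3 and 54, 49.5 and 41.1 FPKM (log2 0.43 ± 0.12, adjusted p = 0.0659).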
